A study of Mus musculus with 4 samples.

Results

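This account follows 9 genes of growth hormone and STAT5 signalling, Cish, Socs2, Socs3, Ghr, Prlr, Stat5a, Stat5b, Igf1 and Bcl6, in mouse kidney sections. They were found by symbol among the 32285 genes of the feature tables, and each had UMIs (unique molecular identifiers, 1 for each captured RNA molecule) in all 4 sections. The genes were selected on their measured difference between genotypes, a fall of Cish beside a rise of Igf1, so every value of that contrast is given here as a description. Visium spatial transcriptomics, which captures RNA from a tissue section in an array of barcoded spots, was run on 10 µm sections of fresh-frozen kidney from male C57BL/6J mice. There were 2 Uox_KO and 2 Control sections. In Uox_KO mice the supplier removed exons 2 to 4 of Uox, and Control mice were wild type. Uox encodes urate oxidase, the liver enzyme that breaks down uric acid, and its loss raises uric acid in the mouse. Each spot covers several cells, so a spot is a small region and not a cell. The age of the mice is not given in the sources used here.

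Growth hormone binds its receptor GHR, which activates the kinase JAK2 and the transcription factors STAT5A and STAT5B. The STAT5 proteins switch on their own brakes, chiefly CISH and SOCS2, and in liver they drive IGF1, the growth factor that carries much of the hormone's effect. SOCS3 is induced mainly by STAT3 and restrains cytokine receptors of the interleukin-6 family, PRLR is the related receptor for prolactin, and BCL6 is a transcriptional repressor that can occupy STAT5 sites and that STAT5 holds down in liver.

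Windows around annotated starts of 8 of the 9 genes were matched by symbol in RefSeq's table for build GRCm38.p6, and Socs2 was not. Each window holds 250 bases before and 50 bases after an annotated start. The windows of Socs3, Stat5a, Stat5b and Igf1 lie inside the gene's annotated span and do not reach its outer 5′ end. For these 4 genes that end was not searched. All windows were searched for TTCNNNGAA, the core of the site that STAT5 and other STAT proteins bind, which reads the same on both strands. The motif lay in the windows of Cish, Socs3, Prlr and Bcl6 and in none of the windows of Ghr, Stat5a, Stat5b and Igf1. The 4 windows with the most matches for each of those genes are shown because Cish and Bcl6, whose levels ran in opposite directions below, both carry several copies. The motif is in capitals, and each sequence is given 5′ to 3′ on the gene's own strand.
Cish, chr9:107296409-107296708, plus strand: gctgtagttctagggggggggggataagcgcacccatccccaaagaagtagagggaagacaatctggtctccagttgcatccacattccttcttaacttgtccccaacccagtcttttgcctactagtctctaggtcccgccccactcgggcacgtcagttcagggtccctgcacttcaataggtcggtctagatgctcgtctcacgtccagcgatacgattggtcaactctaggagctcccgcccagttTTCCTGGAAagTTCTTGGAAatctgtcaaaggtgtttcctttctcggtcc
Bcl6, chr16:23981234-23981533, minus strand: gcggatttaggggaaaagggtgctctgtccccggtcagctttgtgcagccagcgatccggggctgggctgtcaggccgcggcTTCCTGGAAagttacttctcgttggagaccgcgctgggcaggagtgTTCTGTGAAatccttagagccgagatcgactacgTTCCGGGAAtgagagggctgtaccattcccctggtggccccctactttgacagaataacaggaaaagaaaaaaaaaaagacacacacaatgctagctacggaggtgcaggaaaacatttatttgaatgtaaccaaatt
Socs3, chr11:117969317-117969616, minus strand: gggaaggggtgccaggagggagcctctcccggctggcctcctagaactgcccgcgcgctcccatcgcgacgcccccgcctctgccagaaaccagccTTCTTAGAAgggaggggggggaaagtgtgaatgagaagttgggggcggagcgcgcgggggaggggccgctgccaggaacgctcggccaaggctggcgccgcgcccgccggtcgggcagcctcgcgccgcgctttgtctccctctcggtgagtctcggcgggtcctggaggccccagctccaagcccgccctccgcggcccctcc
Prlr, chr15:10223656-10223955, plus strand: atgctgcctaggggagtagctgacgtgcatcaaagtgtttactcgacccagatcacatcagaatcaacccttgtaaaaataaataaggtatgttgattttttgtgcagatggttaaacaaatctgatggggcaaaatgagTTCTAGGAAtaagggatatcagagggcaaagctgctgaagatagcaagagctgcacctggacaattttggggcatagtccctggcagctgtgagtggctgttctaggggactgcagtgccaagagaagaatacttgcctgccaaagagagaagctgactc
The Cish window held 2 matches that do not overlap each other, beginning at bases 1 and 12 of the gene. The Bcl6 window, from the second of 2 annotated starts, held 3 matches, beginning 168, 122 and 88 bases before that start. Socs3 had 1 match 154 bases before its annotated start in the table, a place inside the gene's annotated span. Prlr had 1 match 110 bases before the second of its 3 starts. The Bcl6 and Prlr windows shown also lie inside the annotated spans of their genes, away from the outer 5′ end. Among 27025 genes in the table, 9.55% had a window with at least 1 match, 0.54% one with at least 2 and 0.037% one with at least 3. A match is a description of letters in the window and shows no binding.

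The sections held 2650 and 2590 spots with 53897511 and 57230517 UMIs in Uox_KO, against 2528 and 3362 spots with 93524222 and 107962997 UMIs in Control. Median UMIs per spot were 16674 and 19599.5 in Uox_KO and 37386 and 32038.5 in Control. The share of mitochondrial UMIs was 14.3% and 17.3% in Uox_KO and 13.0% and 14.0% in Control. Malat1, a nuclear RNA, had 308 and 275 CPM in Uox_KO and 127 and 94.2 CPM in Control on library totals, and its part in the results was not tested. Uox itself had 0 UMIs in every section, which allows up to 0.0557 CPM (UMI counts scaled to equal library totals) in the shallowest, so it does not check the genotype labels. The kidney markers were present, with the 7 S1 and S2 proximal tubule genes summing to 3483 and 3894 CPM in Uox_KO and 7424 and 7214 in Control. Other cell types differed too. The 6 fibroblast genes summed to 1298 and 982 CPM in Uox_KO against 83.9 and 70.8 in Control, the 8 macrophage genes to 1197 and 930 against 75.1 and 69.5, and the 6 adipocyte genes to 1192 and 2136 against 2.17 and 21.1, with Ucp1 at 0 in 1 Control section. From 1861 to 2539 spot barcodes were shared between any pair of sections, since barcodes mark positions on the slide, and of 200 shared barcodes compared for each pair none had identical counts in both sections.

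Cish, the STAT5-induced inhibitor, was the member that stood lowest in Uox_KO kidney. It had 9.15 and 8.77 CPM (here on TMM-scaled library sizes) in the Uox_KO sections, against 47.7 and 50.0 CPM in the Control sections. The groups were far apart, and the mean of 8.96 ± 0.27 CPM in Uox_KO was 5.45-fold below the 48.8 ± 1.60 CPM of Control (SD, n = 2 each), a log2 difference of -2.45 ± 0.063 (SE). Behind these values stood 550 and 540 Cish UMIs in Uox_KO and 4055 and 4939 in Control. In a whole section, fewer cells of a type and less RNA per cell cannot be told apart. Of all 16369 genes tested in this contrast 67.1% were called at an adjusted p of 0.05 by edgeR, so a difference between these genotypes was common, and 99.0% of the genes had a higher log2 difference than Cish.

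Socs2, the other classic STAT5-induced brake on the growth hormone receptor, did not go with Cish. Its level was 10.9 and 10.6 CPM in Uox_KO, against 5.36 and 5.82 CPM in Control. Both Uox_KO sections lay above both Control sections, with a log2 difference of 0.95 ± 0.084 (SE). Socs3, the brake on interleukin-6 type receptors, showed the widest gap of the 9 genes in the upward direction. It had 11.8 and 11.6 CPM in Uox_KO, against 1.0 and 0.80 CPM in Control, from 708 and 713 UMIs against 85 and 79. The log2 difference was 3.70 ± 0.13 (SE), or 13.0-fold. Of the 3 SOCS family members, 1 was lower and 2 were higher in the same sections.

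The receptors also split. Ghr, the growth hormone receptor, had 240.0 and 203 CPM in Uox_KO, against 381 and 329 CPM in Control. The ranges did not overlap, and the mean was 1.60-fold lower in Uox_KO, with a log2 difference of -0.68 ± 0.11 (SE). Prlr, the prolactin receptor, had 19.3 and 7.60 CPM in Uox_KO, against 2.14 and 1.85 CPM in Control. Both Uox_KO sections were above Control, but they differed from each other by more than the whole Control level, and the log2 difference of 2.75 ± 0.42 (SE) became 1.93 without Uox_KO replicate 1.

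The signal transducers moved least. Stat5a had 18.0 and 18.1 CPM in Uox_KO, against 13.0 and 14.6 CPM in Control, a log2 difference of 0.39 ± 0.076 (SE). Stat5b, its close paralog in the next position on chromosome 11, had 17.3 and 15.4 CPM in Uox_KO, against 21.0 and 21.8 CPM in Control, a log2 difference of -0.39 ± 0.075 (SE). On this scale neither pair of groups overlapped, and the 2 genes lay on opposite sides of 0. On library totals the Stat5b groups did overlap, at 19.2 and 16.5 CPM in Uox_KO and 19.1 and 20.01 CPM in Control, with a log2 difference of -0.13, while that of Stat5a was 0.65. How reads that match both paralogs were counted is not given in the sources used here.

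Of the genes that STAT5 acts on in liver, Igf1 was higher. It had 14.2 and 16.4 CPM in Uox_KO, against 2.62 and 2.90 CPM in Control, a 5.54-fold difference with a log2 value of 2.47 ± 0.11 (SE). Bcl6, which STAT5 holds down in liver, had 27.9 and 30.5 CPM in Uox_KO, against 7.73 and 7.95 CPM in Control, a log2 difference of 1.90 ± 0.072 (SE). The low Cish of Uox_KO kidney thus came with a lower Ghr and Stat5b, and with higher Socs2, Socs3, Prlr, Stat5a, Igf1 and Bcl6.

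**Figure D1:**
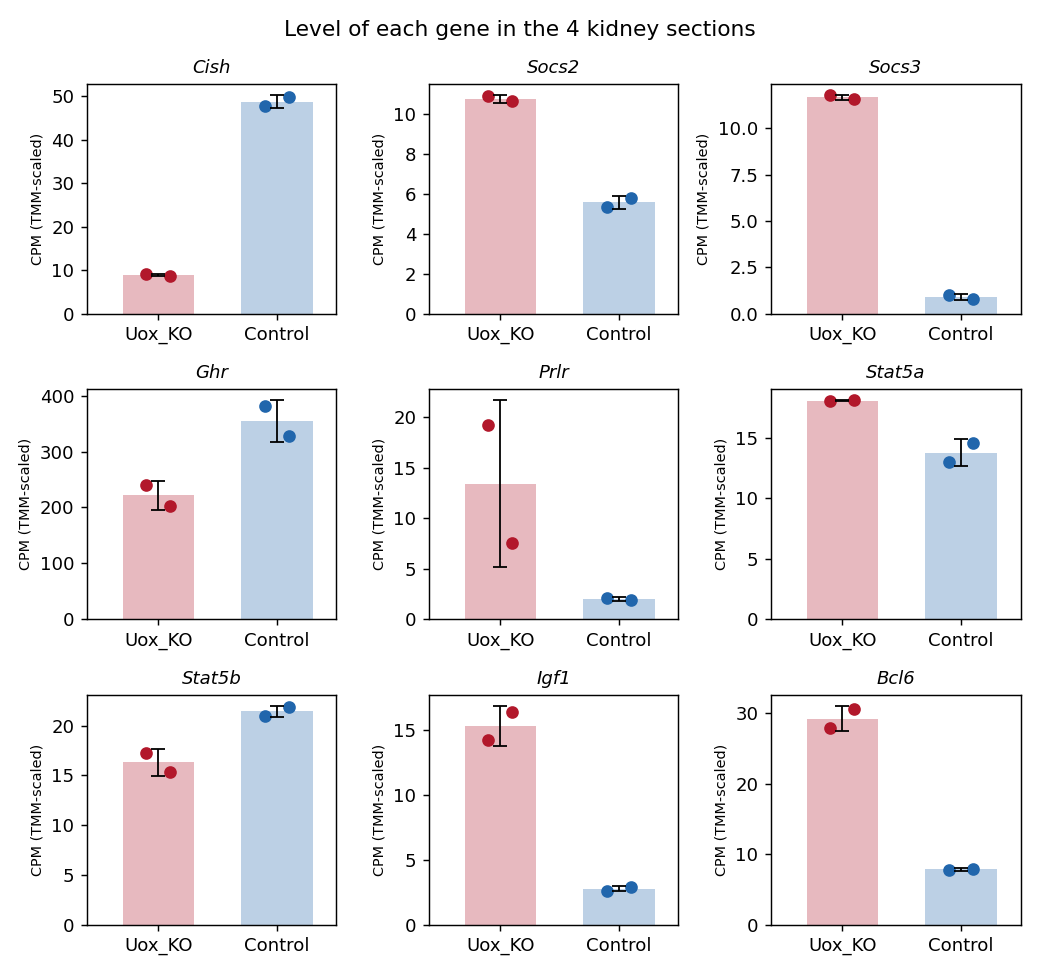
Level of the 9 genes in each kidney section, in CPM on TMM-scaled library sizes from 0, with Uox_KO left and Control right. Points are sections, bars are means and error bars are SD over 2 sections. Cish, Ghr and Stat5b are lower in both Uox_KO sections, the other 6 genes are higher, and the 2 Uox_KO sections of Prlr lie apart at 19.3 and 7.60 CPM.

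The same directions were seen in the share of spots with a UMI when every spot was thinned to 8000 UMIs, which left out 654 and 473 shallower spots in Uox_KO and 15 and 13 in Control. Cish was found in 7.87% (95% exact binomial interval 6.72 to 9.13) and 8.17% (7.04 to 9.42) of Uox_KO spots, against 28.6% (26.9 to 30.4) and 31.3% (29.7 to 32.9) of Control spots. Before thinning the shares were 15.5% and 16.8% in Uox_KO and 75.0% and 73.4% in Control. Intervals cover counting error only. Socs3 was found in 11.2% and 10.2% of thinned Uox_KO spots, against 0.915% and 0.776% of Control spots. Igf1 was found in 13.0% and 12.9% of them, against 2.11% and 2.18%. Ghr was the most widespread gene, in 73.9% and 71.5% of thinned Uox_KO spots and 88.3% and 85.2% of Control spots. Stat5b was found in 13.5% and 11.9% of spots in Uox_KO and 15.2% and 15.3% in Control, and the interval of Uox_KO replicate 1 overlapped those of both Control sections.

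Where each gene lies in the kidney was asked within sections. The average over genotypes does not use the contrast that chose the genes. The difference of pattern between genotypes compares the same groups as that contrast, so it is not independent of the choice. In each section the 10% of spots with the highest share of UMIs in a list of segment markers were compared with all other spots, with the section as a block. No member is in a marker list. With at least 3 marker UMIs required in every chosen spot, the S1 and S2 proximal tubule list and the S3 list (the last, straight part of the proximal tubule) could be used. After the data were seen, spots under 5000 UMIs were left out of the ranking, which let the thick ascending limb, the distal convoluted and connecting tubule and the principal cell (the water channel cell of the collecting duct) lists pass in all sections. Fibroblast, macrophage and injured tubule lists passed in Uox_KO alone, the last without Clu, which made up nearly all of that list's UMIs in Control. Levels in chosen spots are scaled to the total of those spots, again in CPM. In S1 and S2 spots the markers stood at 2.78 and 2.31 times the other spots in Uox_KO, against 1.55 and 1.58 in Control. For S3 it was 3.11 and 3.09 against 2.17 and 2.33. It was 43.3 and 20.8 against 6.35 and 6.00 for the distal tubule, and 32.2 and 20.1 against 6.29 and 6.11 for principal cells. The thick limb had 19.7 and 14.9 against 5.13 and 4.96. Chosen spots thus stood out less in Control, and the part of this in genotype differences of pattern was not tested.

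In Control kidney Cish differed little between the segment spot sets, and in Uox_KO it was lowest in proximal tubule spots. In spots rich in S1 and S2 markers it had 2.28 and 2.60 CPM in Uox_KO, against 39.0 and 40.5 in Control. The within-section log2 difference from other spots was -1.77 ± 0.21 (SE, adjusted p = 1.7e-09) in Uox_KO and -0.15 ± 0.067 (adjusted p = 0.10) in Control, and the difference between genotypes was -1.62 ± 0.23 (adjusted p = 1.8e-07, edgeR). In spots rich in S3 markers Cish had 3.97 and 5.56 CPM in Uox_KO, against 47.0 and 52.6 in Control. There the pattern went opposite ways, at -0.89 ± 0.17 in Uox_KO and 0.30 ± 0.067 in Control, with a difference of -1.19 ± 0.18 (adjusted p = 0.00064).

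Further along the nephron the Uox_KO level of Cish was higher than in proximal tubule spots. Distal tubule spots had 20.9 and 22.0 CPM in Uox_KO, against 44.6 and 44.3 in Control. Principal cell spots had 27.0 and 19.6 in Uox_KO, against 45.9 and 49.2 in Control. Thick ascending limb spots had 21.9 and 14.5 in Uox_KO, against 50.2 and 49.0 in Control. The pattern differed between genotypes in all 3 lists, by 1.36 ± 0.14 log2 units for the distal tubule (adjusted p = 0.00018), 1.34 ± 0.13 for principal cells (adjusted p = 0.00016) and 0.92 ± 0.15 for the thick limb (adjusted p = 0.0017). Each of these 5 differences stayed past the threshold when any 1 section was left out, but that of the thick limb was 0.55 (adjusted p = 0.044) without Uox_KO replicate 1. In every one of the 5 spot sets the Uox_KO level was below the Control level. The other spots that these 3 lists were compared with include proximal tubule spots, where Cish was low in Uox_KO.

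**Figure D2:**
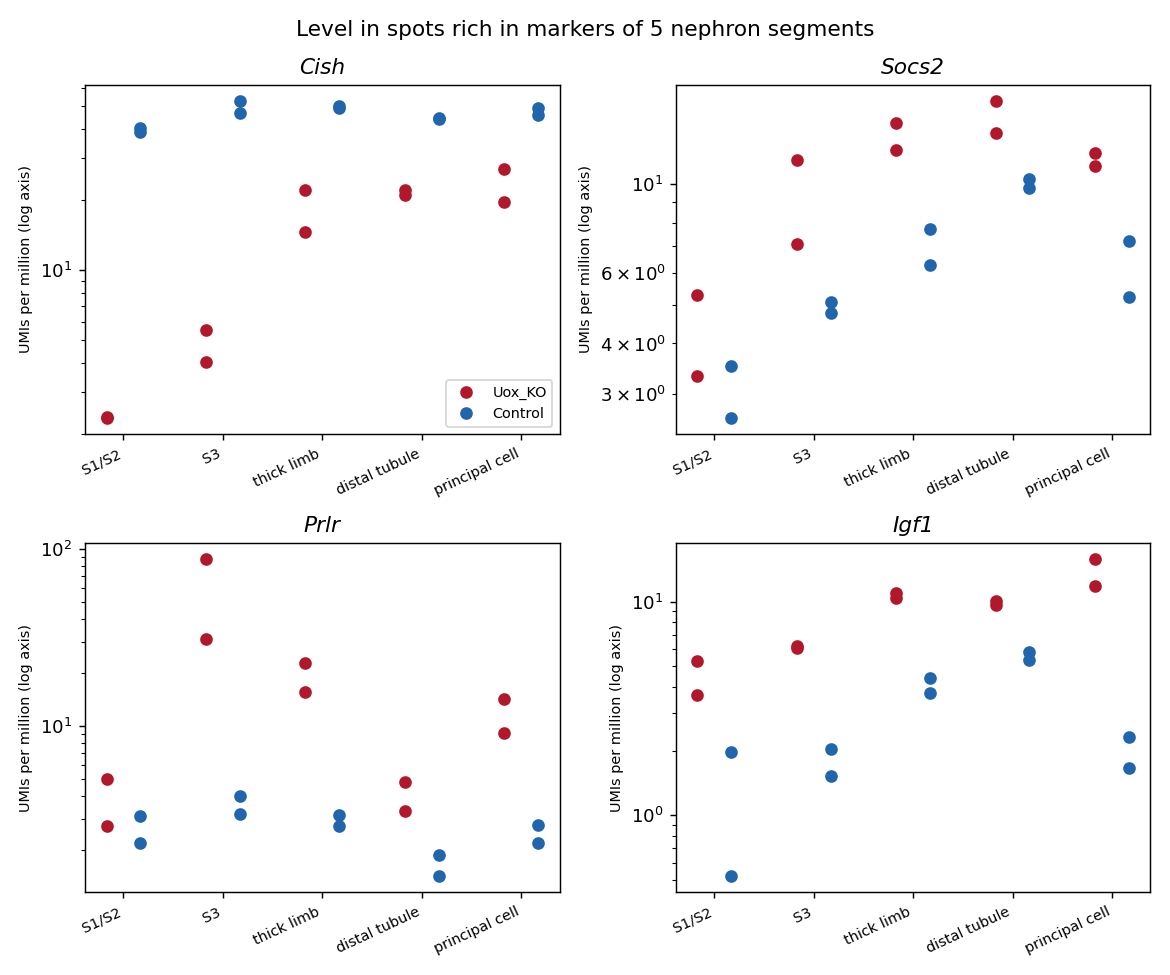
CPM on the UMI total of the chosen spots (log axis) of Cish, Socs2, Prlr and Igf1 in the spots richest in markers of 5 nephron segments, ranked among spots of at least 5000 UMIs. Each point is a section, Uox_KO left and Control right. Cish is level across segments in Control and lowest in S1/S2 spots in Uox_KO, and Prlr in Uox_KO is highest in S3 spots.

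Socs2 had another layout. It was low in S1 and S2 spots of both genotypes, with 5.52 and 3.24 CPM in Uox_KO against 2.62 and 3.52 in Control, and the average within-section log2 difference was -0.98 ± 0.13 (adjusted p = 4.1e-08). The genotype difference in that pattern was -0.47 ± 0.29 (adjusted p = 0.23). In distal tubule spots it had 16.1 and 13.4 CPM in Uox_KO (0.28 ± 0.13 against other spots, adjusted p = 0.11), against 9.79 and 10.3 CPM in Control (1.0 ± 0.12, adjusted p = 9.9e-05). Within Uox_KO, Socs2 was higher where injured tubule markers were, at 27.6 and 28.6 CPM against 10.2 and 9.37 in other Uox_KO spots (1.12 ± 0.11, adjusted p = 4.1e-07). Cish was also higher in those injured spots, with 25.7 and 15.8 CPM against 8.32 and 8.66 elsewhere in Uox_KO (0.88 ± 0.15, adjusted p = 0.00012), a value that was 0.47 without Uox_KO replicate 1. Both genes were also higher with macrophage markers in Uox_KO, by 0.76 to 0.77 log2 units for Cish and 0.51 to 0.62 for Socs2 when any 1 section was left out. With fibroblast markers these ranges were 0.35 to 0.78 and 0.33 to 0.88. So the pair ran opposite ways between genotypes over whole sections, though in S1 and S2 spots the Socs2 levels of the genotypes overlapped. Within Uox_KO sections the pair ran the same way towards injured, macrophage-rich and fibroblast-rich spots. With fibroblast markers the values of Cish and Socs2 were lowest, at 0.35 and 0.33, without Uox_KO replicate 2.

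Socs3 in Uox_KO was higher with macrophage, fibroblast and injured tubule markers. Macrophage-rich spots had 47.2 and 53.7 CPM against 10.4 and 9.38 in other spots (1.79 ± 0.12, adjusted p = 1.1e-09), and fibroblast-rich spots had 34.4 and 48.2 against 11.7 and 10.0 (1.38 ± 0.16, adjusted p = 1.1e-07). In injured tubule spots the log2 difference was 1.04 ± 0.14 (adjusted p = 1.2e-05). In Control, Socs3 had 4 to 18 UMIs in any chosen spot set, too few to read a layout. The fibroblast-rich and macrophage-rich spots of Uox_KO were shallower than the other spots, with medians of 11384.5 and 10473.5 UMIs and of 13852 and 12128.5 UMIs, against 19981 to 22717.

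Both receptors were highest in S3 spots, which were deeper than other spots in all sections, with medians of 35141 and 32793 UMIs in Uox_KO and 45908 and 41366 in Control. Ghr had 603 and 447 CPM there in Uox_KO, against 578 and 528 in Control, and the average log2 difference from other spots was 1.40 ± 0.049 (adjusted p = 1.1e-10). The S3 level of Ghr therefore overlapped between genotypes, while the other spots had 200 and 181 in Uox_KO and 313 and 268 in Control. The pattern was steeper in Uox_KO by 0.70 ± 0.096 log2 units (adjusted p = 0.00035). In S1 and S2 spots Ghr was also close, at 201 and 191 in Uox_KO and 214 and 197 in Control. Ghr was low in Uox_KO spots rich in macrophage markers (-1.50 ± 0.094) and fibroblast markers (-1.50 ± 0.066), which are types of cell whose markers were more abundant in Uox_KO sections. The part of such spots in the lower whole-section Ghr was not tested.

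Prlr in Uox_KO was concentrated in S3 spots, which held 753 of 1160 and 251 of 468 of its UMIs. It had 83.0 and 31.0 CPM there, against 4.00 and 3.21 in Control S3 spots. The log2 difference from other spots was 3.34 ± 0.11 in Uox_KO and 1.31 ± 0.20 in Control, and the difference between genotypes was 2.03 ± 0.21 (adjusted p = 3.9e-05). In S1 and S2 spots, Prlr had 3.23 and 5.03 CPM in Uox_KO against 2.99 and 2.18 in Control, so the S1 and S2 levels lay far closer than those of S3. Within Uox_KO, Prlr was lower with injured tubule markers, at -1.49 to -1.15 log2 units when any 1 section was left out. With macrophage markers this range was -2.05 to -0.81, and with fibroblast markers -2.11 to -1.61. Prlr followed Ghr over Uox_KO spots. After thinning, it was found in 12.9% and 5.49% of the Uox_KO spots with a Ghr UMI and in 3.08% and 3.15% of those without, whereas Control had 1.49% and 1.72% with and 1.70% and 1.82% without.

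**Figure D3:**
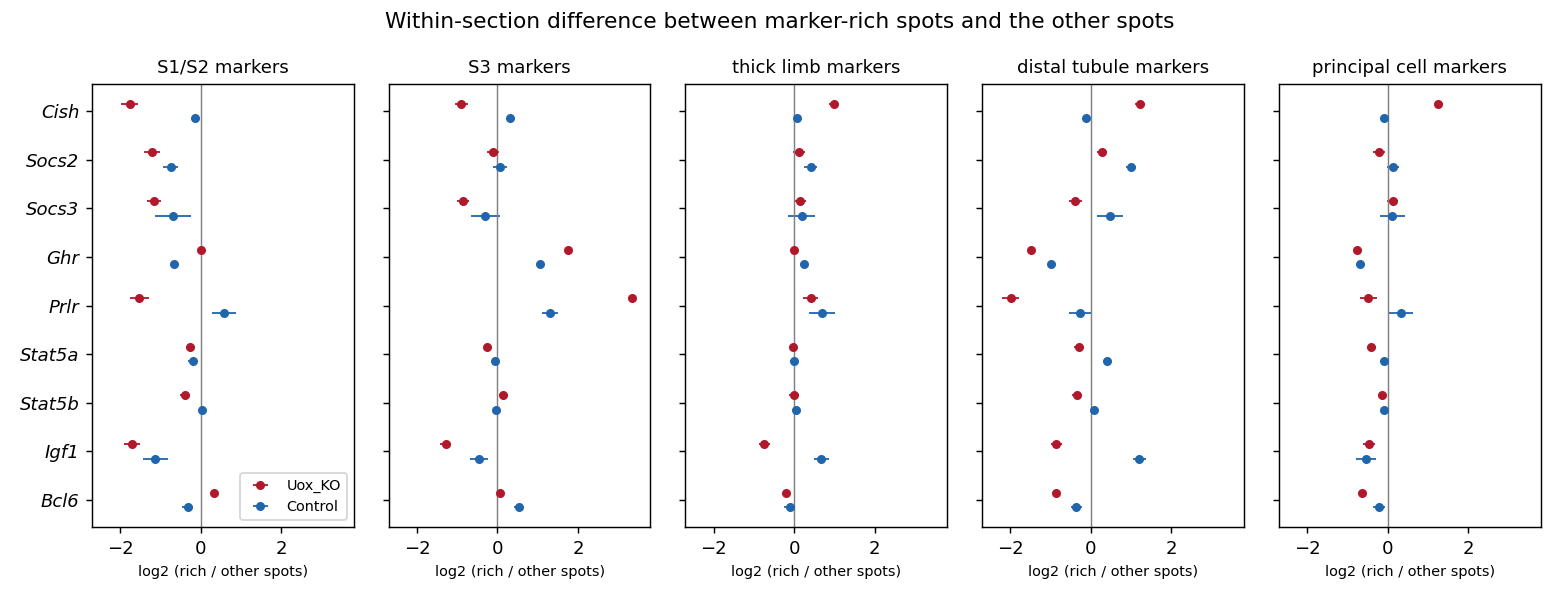
Log2 ratio of each gene between marker-rich spots and the other spots of the same section, by segment, with Uox_KO above Control for each gene. Points are edgeR estimates over 2 sections and bars are SE. Cish in Uox_KO is below 0 with S1/S2 and S3 markers and above 0 with the other 3 lists, while in Control it stays within 0.30 of 0, and Prlr in Uox_KO reaches 3.34 with S3 markers.

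The distal tubule level of Igf1 was higher in Uox_KO than in Control, but its standing towards the other spots of the section turned. In Uox_KO the distal tubule spots had less than the rest, with 10.1 and 9.67 CPM against 15.8 and 18.3 elsewhere (-0.86 ± 0.14, adjusted p = 0.00051). In Control they had more than the rest, with 5.31 and 5.79 CPM against 2.09 and 2.33 (1.20 ± 0.16, adjusted p = 0.00021), and the difference between genotypes was -2.06 ± 0.21 (adjusted p = 0.00016). Igf1 in Uox_KO was higher with fibroblast markers, at 45.5 and 45.8 CPM against 13.5 and 15.8 (1.09 ± 0.12, adjusted p = 1.2e-07), and with macrophage markers, at 41.6 and 45.5 against 13.3 and 15.6 (1.03 ± 0.12, adjusted p = 2.2e-06). Such spots can be among the other spots that the distal tubule spots of Uox_KO were compared with, and their part in the turn was not tested. In S1 and S2 spots it was low in both genotypes, from 28 and 22 UMIs in Uox_KO and 16 and 5 in Control.

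Bcl6 and the 2 Stat5 genes complete the set. Bcl6 in Uox_KO ranged over 18.3 to 32.8 CPM in the 5 segment sets and in Control over 5.66 to 10.3, and these ranges did not overlap. It was lower in distal tubule spots, at -0.61 ± 0.085 on average over the genotypes (adjusted p = 0.00014), with -0.87 in Uox_KO and -0.36 (adjusted p = 0.062) in Control. Over the 5 segment sets of either genotype the log2 difference from other spots ranged from -0.40 to 0.41 for Stat5a and from -0.39 to 0.14 for Stat5b.

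Of the 9 genes, 7 differed between S1 and S2 spots and other spots on average, where 45.2% of all genes tested did, and 5 differed between genotypes in that pattern, where 32.6% did. For S3 the counts were 6 genes beside 47.9%, and 4 beside 13.1%. For the distal tubule they were 5 beside 42.3%, and 6 beside 9.43%. For principal cells they were 5 beside 35.9%, and 1 (Cish) beside 4.06%. For the thick ascending limb they were 3 beside 23%, and 2 (Cish and Igf1) beside 4.87%. The averages join genotypes whose patterns were not always alike. In S1 and S2 spots 7 genes were called in Uox_KO alone, beside 50.1%. In Control alone 3 were called, Socs2, Ghr and Igf1, beside 23.0%, and of these Socs2 and Igf1 were called in both genotypes. Within Uox_KO the counts were 6 for fibroblast markers beside 54.7%, 7 for macrophage markers beside 56.9% and 7 for injured tubule markers beside 48.5%. The genotype difference of the distal tubule stood furthest above its share, but 4 of its 6 genes, Socs2, Ghr, Prlr and Stat5a, missed the threshold when 1 of the Control sections was left out. Calls that missed the threshold without at least 1 section were, for the averages, those of Prlr and Stat5a in S1 and S2 spots, Cish, Socs3 and Bcl6 in S3 spots, Stat5a and Igf1 in principal cell spots, and Ghr and Prlr among the 3 of the thick limb. For the genotype difference they were also Stat5b for S1 and S2, Bcl6 for S3 and Igf1 for the thick limb. Within Uox_KO they were Cish and Socs2 with fibroblast markers, and Stat5b with macrophage and injured tubule markers, which missed it in all 4 cases.

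The whole-section values were also taken without spots of fat or injury. Spots with at least 1000 adipocyte-marker CPM made up 10.4% and 14.6% of spots in Uox_KO, against 0.0791% and 0.506% in Control. In Uox_KO they held 22.8% and 44.6% of all Igf1 UMIs and 6.85% and 11.9% of all UMIs. Without them the log2 difference of Igf1 was 2.02, and without fat and injured spots together 1.84. Spots with as many injured-tubule UMIs, Clu included, held 57.3% and 55.9% of the Cish UMIs of Uox_KO and 26.7% and 30.2% of all its UMIs. In Control they were 10.1% and 13.3% of spots and held 7.62% and 12.01% of the Cish UMIs and 8.42% and 12.1% of all UMIs. That list is almost wholly Clu in Control, where it made up 31634 of 32197 and 46443 of 47059 UMIs of the list over the whole Control sections, while the injury marker Havcr1 had 26 and 30. Clu was also most of the list in Uox_KO, with 31665 of 50633 and 48119 of 66101 UMIs, where Havcr1 had 4811 and 5718. These spots were thus chosen largely by Clu in both genotypes. Without the spots of both genotypes that passed this limit the log2 difference of Cish was -3.06, further from 0 than over whole sections, and that of Socs2 was 0.58.

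**Figure D4:**
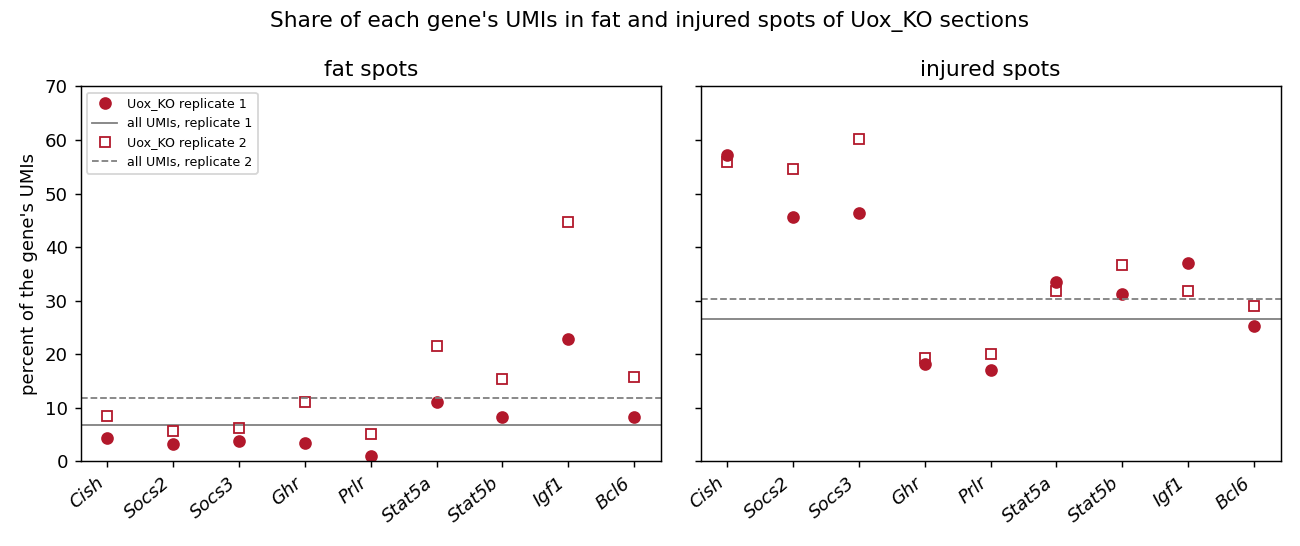
Percent of each gene's UMIs in the fat spots (left) and injured spots (right, chosen with Clu in the list) of the 2 Uox_KO sections. Filled circles are replicate 1, open squares replicate 2, and lines mark the percent of all UMIs in those spots. Igf1 stands above the lines in fat spots, and Cish, Socs2 and Socs3 stand above them in injured spots.

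The genes with the nearest layout were looked for among 8288 genes over 32 sums of marker-rich spots (8 lists in 4 sections, centred within each section). The lists are the 5 segments, endothelium, hepatocyte genes and injured tubule with Clu, which reached 3 marker UMIs in every chosen spot of all sections. For Socs3 the Control sums hold 4 to 18 UMIs each, so its r there rests on few. These sums share libraries and in part spots, so the correlations are descriptions. Cish lay nearest to Krt8, a keratin of simple epithelia (r = 0.93), Rbbp7 and Ppdpf, with r of 0.93, 0.97 and 0.94 over the Uox_KO sums and 0.75, 0.17 and 0.53 over the Control sums. Socs2 lay nearest to Cdh3, which encodes P-cadherin (r = 0.92), Metap2 and Dapk1, and Socs3 to Tapbp, a chaperone of antigen presentation (r = 0.96), Sept7 and Esyt2. Ghr lay nearest to Slc6a18, an amino acid transporter that is itself in the S3 list (r = 0.99), Napsa and Defb29. Prlr lay nearest to Cyp2d9 (r = 0.83), Apob and Slc15a2, with r of 0.92 to Cyp2d9 over the Uox_KO sums and 0.36 over the Control sums. Whole Control sections held 182 and 183 Prlr UMIs, so its Control r rests on few too, and the 2 values of r cannot be compared closely. Igf1 lay nearest to Gas1 (r = 0.91), Tesk1 and Pgrmc2, and Bcl6 to Adamts15 (r = 0.85), Pon2 and Map1lc3a. Stat5a lay nearest to Fgfr1op (r = 0.86), Zfp207 and Rcc2, and Stat5b to Oser1 (r = 0.92), Rpl36 and Zfc3h1.

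The wider pathway was read from 96 other genes in 7 lists, of which 84 could be tested. In Uox_KO, 49 rose, 18 fell and 17 did not pass, so 79.8% were called, beside 67.1% of all genes, of which 34.6% rose and 32.5% fell. The median log2 difference was 0.61 over the 84 genes and 0.0025 over all genes tested. The hormones themselves, Gh and Prl, and also Epo, had 0 UMIs in all sections. Of 9 ligands tested, 8 rose and 0 fell. Clcf1, a cytokine of the interleukin-6 family, had 21.8 ± 2.66 CPM in Uox_KO and 1.98 ± 0.44 CPM in Control (adjusted p = 6.9e-06, edgeR; SD, n = 2 each). Lif, of the same family, had 3.12 ± 0.10 CPM in Uox_KO and 0.0952 ± 0.051 CPM in Control (adjusted p = 1.5e-05, edgeR). Tslp and Il11 rose too, by 3.38 and 2.96 log2 units.

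Among 15 other cytokine receptors, 12 rose and 2 fell. Osmr, the oncostatin M receptor, rose by 2.51 ± 0.097 log2 units and Csf2rb, the shared beta chain of the interleukin-3 and GM-CSF receptors, by 3.63 ± 0.18. Il6ra and Csf2ra rose by 1.86 and 1.35. Among 9 kinases and other STATs, 5 rose, 1 fell and 3 did not pass, with Stat3 at 60.0 ± 3.18 CPM in Uox_KO and 29.5 ± 1.61 CPM in Control. Jak3 and Stat2 rose by 1.39 and 0.85 log2 units. Jak2, the kinase of the growth hormone receptor, had a log2 difference of 0.17 and did not pass (a gene singled out for its role after its value was seen).

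The other negative regulators were mixed. Of 15, 6 rose, 2 fell and 7 did not pass. Socs1, Socs7 and the phosphatase gene Ptpn1 rose by 1.18, 0.46 and 0.52 log2 units, and Pias2 fell by 0.61. Of 9 adaptors, 5 rose and 3 fell. Irs2, an insulin receptor substrate, fell to 14.0 ± 1.80 CPM in Uox_KO, against 42.1 ± 3.77 CPM in Control (log2 difference -1.59 ± 0.10), and Gab1 fell by 0.62, while Sh2b2 and Pik3r1 rose by 3.72 and 1.28.

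Of 15 genes tested that are known as STAT5 targets outside the kidney, 9 rose, 3 fell and 3 did not pass. Myc and Ccnd2, which drive proliferation, rose by 2.49 ± 0.093 and 2.26 ± 0.090 log2 units, and the kinase gene Pim1 by 1.96 ± 0.087. Pim3, a relative of Pim1, fell to 64.5 ± 0.47 CPM in Uox_KO, against 155 ± 3.43 CPM in Control. In the IGF axis, 4 of 12 rose and 7 fell. Igfbp2, an IGF-binding protein, had 40.7 and 28.0 CPM in Uox_KO, against 0.19 and 0.38 CPM in Control. Pappa2, a protease that frees IGF1 from its binding proteins, had 11.6 and 8.12 CPM in Uox_KO, against 0.29 and 0.30 CPM in Control. Igfbp6 rose by 3.19 log2 units and Igfbp1 fell by 0.82. On library totals in place of TMM scaling, the median of all genes moved up by 0.27 log2 units, and the calls split into 8156 higher and 2926 lower, beside 5665 higher and 5325 lower with TMM.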

How the data were processed

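The deposited values are raw UMI counts, whole numbers for each gene in each spot. The submitters' processing notes name Space Ranger 1.3.1 and mm10. The members, lists and tests were chosen with earlier results of these data known. Counts were summed per section, filtered with filterByExpr, scaled by TMM, and compared by the quasi-likelihood test of edgeR 4.0.16 under R 4.3.3, with Benjamini-Hochberg adjustment over all genes, at 0.05. The section is the replicate. The labels number the sections within each genotype, and each was taken as a mouse of its own, which the labels do not state. Within-section contrasts used the sums of the 10% of spots richest in a marker list and of the other spots. Named pathway genes are the up to 4 with the smallest p of each list, of which 1 is not reported here, and like genes the 3 with the highest Pearson r among genes of at least 10 CPM. Alternatives were library totals, RLE factors, DESeq2 1.42.0, no filter, each section left out, a replicate block, thinning, other shares of spots, and sections without fat or injured spots. On simulated counts with 200 changed genes, whole sections recovered 79.0% of 2-fold and 99.0% of 4-fold changes, and the S1 and S2 contrast 88.0% of 2-fold changes on average and 69.0% as a genotype difference. Far fewer genes changed there than in the data, where 67.1% were called between genotypes, so these rates need not hold for the data. Spot positions were not used here. Replicates are numbered as in the labels.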

Additional observations from a re-analysis of the deposited data

Results flagged for a closer look

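The groups hold 2 sections each, too few to look for outlying sections. The pairs below compare the same genotypes as the contrast that chose the genes, so they are not independent of that choice. The pattern of a gene within sections differed between genotypes in 18 pairs of gene and marker list (edgeR, adjusted over all genes; log2 units, Uox_KO minus Control). Cish differed in all 5 segment lists, by -1.62 for S1/S2, -1.19 for S3, 1.36 for the distal tubule, 1.34 for principal cells and 0.92 for the thick ascending limb. Ghr differed by 0.69 for S1/S2, 0.70 for S3 and -0.49 for the distal tubule. Prlr differed by -2.10 for S1/S2, 2.03 for S3 and -1.73 for the distal tubule. Igf1 differed by -2.06 for the distal tubule and -1.41 for the thick ascending limb. Bcl6 differed by 0.66 for S1/S2 and -0.46 for S3. For the distal tubule Socs2 differed by -0.72 and Stat5a by -0.71, and for S1/S2 Stat5b by -0.43.

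Not all of these stood on every section. That of Prlr for S1/S2 was -0.96 without Uox_KO replicate 1 and that of Cish for the thick ascending limb 0.55. The distal differences of Socs2, Stat5a and Ghr missed the threshold without either Control section, at -0.54 and -0.61, -0.62 and -0.48, and -0.27 and -0.41 without Control replicate 1 and 2 in that order. That of Prlr missed it without Control replicate 2 (-1.21, adjusted p = 0.28). The S3 difference of Bcl6 missed it without Control replicate 1 (-0.62, adjusted p = 0.098) or 2 (-0.27, adjusted p = 0.56), and the thick limb difference of Igf1 without Control replicate 1 (-1.19, adjusted p = 0.082). The S1/S2 difference of Stat5b missed it without Uox_KO replicate 1 (adjusted p = 0.14), Uox_KO replicate 2 (adjusted p = 0.10) or Control replicate 1 (adjusted p = 0.18). On library totals the S1/S2 difference of Bcl6 was 0.34 (adjusted p = 0.098).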

How the results depend on the processing

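The 9 genes kept the direction of their genotype difference under every setting tried, and the pathway counts stayed within 1.5 times of 49 and 18. Library totals gave -2.18 for Cish, 1.21 for Socs2, -0.41 for Ghr, 2.73 for Igf1, -0.13 for Stat5b and 0.65 for Stat5a, and 2926 genes lower against 5325. Leaving out fat spots gave -2.40, 1.03 and 2.02 for Cish, Socs2 and Igf1, leaving out injured spots -3.06, 0.58 and -0.46 for Cish, Socs2 and Ghr, and leaving out both, a setting chosen after seeing the data, -3.05, 0.69, -0.39 and 1.84 for Cish, Socs2, Ghr and Igf1. Leaving out 1 section, with the lone section of a group assumed to vary like the others, gave 0.89 to 1.0 for Socs2 and 1.93 to 3.29 for Prlr, the lowest without Uox_KO replicate 1. The average for Prlr in S1/S2 spots, -0.47, ranged over -0.99 to 0.099 (-1.09 to 0.12 when only spots of at least 5000 UMIs were ranked) and turned sign without Uox_KO replicate 1, and the Bcl6 difference in injured tubule spots, -0.38, turned to 0.022 on library totals; the cause was not tested. The S3 average of Cish missed the threshold without Uox_KO replicate 1 (-0.14) or Control replicate 1 (-0.27), and that of Socs3 without either Control section. Cish and Socs2 in fibroblast spots missed it without Uox_KO replicate 2, at 0.35 and 0.33. Fitted with a replicate block, 5739 genes were higher and 5377 lower, with 49 and 18 pathway genes; same-numbered sections correlated at 0.090 in their deviations, which with 2 sections a group is 1 value for both numbers, and this does not show that the numbers pair the sections. The deposited names carry other numbers, which pair the sections the same way. The 20% share could not be used for S3, whose lowest chosen spot had under 3 marker UMIs. Depth limits what the Control spot sets show for Socs3, Prlr and Igf1, which had few UMIs there.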
